A study of Mus musculus with 16 samples.

Results

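Expression of 32 endothelial genes was followed in mouse fat, of 32187 genes measured in either depot. The genes had been listed by symbol and matched to the Ensembl identifiers of both expression tables, and all 32 were found in both. Of these, 28 are genes of blood vessel endothelium and 4 (Prox1, Flt4, Mmrn1 and Reln) are genes of lymphatic endothelium, and they are described apart. The mice were females on C57BL/6J background that all carried the Lcn2-null allele Lcn2tm1Aade, in both groups. At 8 weeks of age they were injected with the virus vector AAV8, which delivered the gene of LCN2 or that of green fluorescent protein (GFP). Both constructs were driven by the adiponectin promoter, which is active in fat cells, and carried a target site of the liver microRNA miR-122 that limits expression in liver. All mice ate a HF/HS diet and were sampled at 16 weeks. Gonadal fat was profiled in 4 LCN2 and 4 GFP samples, and subcutaneous fat in 4 LCN2 and 4 GFP samples, 16 samples in all. Whether equal replicate numbers in the 2 depots stand for 1 mouse is not stated in the labels.

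Endothelial cells line all vessels. In blood vessels they are held together by VE-cadherin and claudin-5, respond to VEGF, angiopoietins and apelin through surface receptors, and keep their identity through transcription factors of the ETS and SOX families. In fat, capillary endothelium also brings lipoprotein lipase to the vessel lumen, where fatty acids are released for the fat cells. Lymphatic endothelium forms the vessels that drain tissue fluid towards lymph nodes, and it is set by the transcription factor Prox1. Lymph nodes embedded in fat have blood and lymphatic vessels of their own.

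Defining genes of endothelium were abundant in every library. In gonadal fat, per length, Cdh5 stood highest at 66.1 ± 18.8 CPM per kilobase of exon (SD over 8 libraries), followed by Cldn5 at 55.0, Eng at 38.9, Gpihbp1 at 36.0, Plvap at 34.6 and Pecam1 at 32.7. The lymphatic genes stood lowest of the 32, with Flt4 at 2.22, Mmrn1 at 1.26, Prox1 at 0.272 and Reln at 0.266. Subcutaneous fat had Cdh5 and Cldn5 first and the same 4 lymphatic genes last on the rlog scale corrected for length. Recovered reads per gonadal library ranged between 35173260 and 42890102, whereas no depth is known for subcutaneous fat. Lcn2 itself had normalized counts of 186, 189, 522 and 481 with the LCN2 vector and between 62.1 and 103 with GFP in gonadal fat. Its rlog values in subcutaneous fat were 8.74, 8.49, 9.45 and 9.82 with LCN2 and between 7.76 and 8.37 with GFP. Lcn2 signal was thus present with GFP too, although the mice carried the null allele, and its source was not tested. Lcn2 did not overlap between the vectors in either depot, with a two-sided exact permutation p of 0.0286 in each, the smallest that 4 against 4 samples allow. Of all genes, 4.40% in gonadal and 3.81% in subcutaneous fat were higher without overlap. Limma gave Lcn2 a log2 difference of 1.93 in gonadal fat (adjusted p = 0.108) and 0.95 in subcutaneous fat (adjusted p = 0.308).

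The sequences before the start of a few blood vessel genes are given as description, with 1 lymphatic gene for comparison. Whether these sequences bear on the expression values was not tested. Of the 32 members, 17 had an entry among the RefSeq promoters of GRCm38.p6. The stretches below are the 200 bases upstream of the start on the gene's own strand, read 5′ to 3′. None of these bases lies in an annotated exon of GENCODE. Capitals mark the letters GGAAG or CTTCC, the core bound by ETS factors such as Erg, and ACAAT or ATTGT, the core bound by SOX factors such as Sox7, Sox17 and Sox18. Cldn5 (claudin-5) lies at chr16:18776647-18776846 on the plus strand, Tek (the angiopoietin receptor) at chr4:94739089-94739288 on the plus strand, Eng (endoglin) at chr2:32646395-32646594 on the plus strand and Reln (reelin) at chr5:22344706-22344905 on the minus strand.
Cldn5: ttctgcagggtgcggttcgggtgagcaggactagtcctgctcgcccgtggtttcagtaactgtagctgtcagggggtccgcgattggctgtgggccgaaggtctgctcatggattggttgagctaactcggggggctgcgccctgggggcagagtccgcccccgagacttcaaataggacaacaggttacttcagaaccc
Tek: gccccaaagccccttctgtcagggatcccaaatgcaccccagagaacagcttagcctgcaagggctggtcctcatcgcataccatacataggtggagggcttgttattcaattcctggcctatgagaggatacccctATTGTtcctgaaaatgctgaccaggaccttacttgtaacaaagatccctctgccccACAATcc
Eng: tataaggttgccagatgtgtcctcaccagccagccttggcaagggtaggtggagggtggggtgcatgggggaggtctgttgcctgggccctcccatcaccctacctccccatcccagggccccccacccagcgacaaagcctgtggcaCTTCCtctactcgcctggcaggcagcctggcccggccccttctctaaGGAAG
Reln: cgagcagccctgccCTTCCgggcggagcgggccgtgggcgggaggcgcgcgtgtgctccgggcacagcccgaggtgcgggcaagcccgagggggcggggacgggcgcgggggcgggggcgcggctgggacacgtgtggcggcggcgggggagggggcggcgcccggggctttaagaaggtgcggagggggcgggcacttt
The Eng and Reln stretches held the ETS core (2 matches and 1 match), Tek held the SOX core (2 matches), and Cldn5 held neither. Both strands were searched, and the motifs do not overlap each other. In the 200 bases upstream of the start, GGAAG was found in 12 of the 17 members (70.6%) and in 56.8% of all 32851 promoters. ACAAT was found there in 4 of the 17 (23.5%) and in 22.8% of all. A match is only a run of letters and no evidence of a bound site.

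In gonadal fat the 28 blood vessel genes were all higher on average with LCN2, by a median of 0.38 on the log2 scale, against 0.01 over all 19536 genes tested. Of all genes, 52.0% had a difference above 0. No member passed limma's test at an adjusted p under 0.05, a threshold that 20 genes (0.102%) passed. At an unadjusted p under 0.05, limma placed 7 of the 28 higher and none lower (Aplnr, Nos3, Cdh5, Tie1, Sox7, Icam2 and Erg), against 7.44% of all genes placed higher. The groups did not overlap for 2 members, Aplnr and Cdh5, and 4.40% of all genes were likewise higher without overlap. Differences are LCN2 minus GFP, on log2 of the normalized count plus 1, with the SE after ±.

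The heat map of deviations shows that the GFP samples were not alike. GFP replicate 2 was the lowest of the 8 libraries for 26 of the 28 blood vessel genes, whereas 17.7% of all genes were lowest there. The median deviation of the 28 genes from their means was -0.82 in GFP replicate 2 and -0.31 in GFP replicate 3, where 27 of the 28 lay below the mean. The LCN2 libraries stood at 0.15, 0.32, 0.0928 and 0.21. GFP replicate 4, at 0.23, lay within their span, and GFP replicate 1, at 0.0890, just below it. Without GFP replicate 2 the median of the 28 differences was 0.15, with 24 higher and 4 lower. In bulk tissue, fewer endothelial cells and less RNA per cell cannot be told apart.

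**Figure D1:**
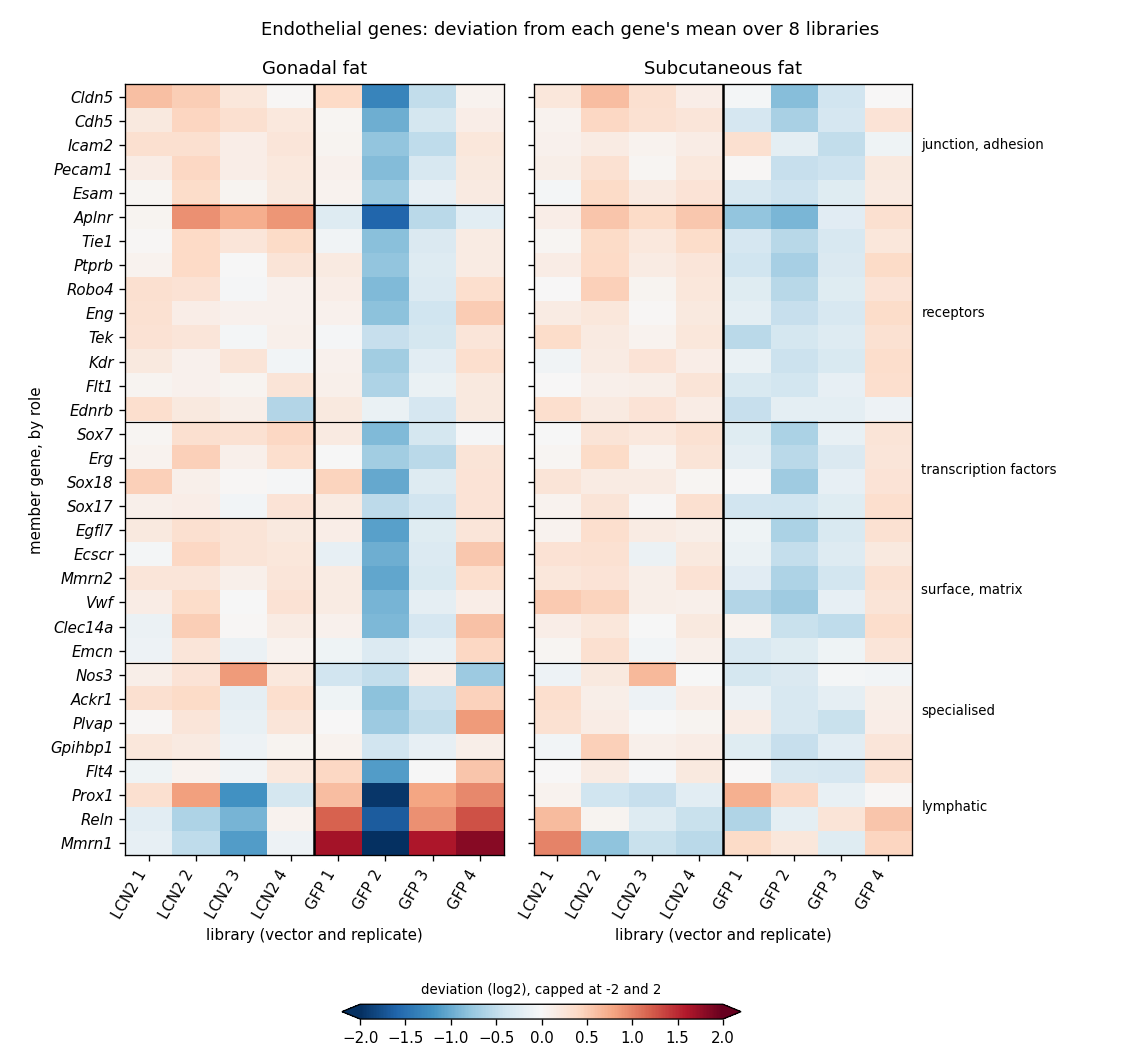
Deviation (log2) of each of the 32 genes (rows, by role) from its mean over the 8 libraries of a depot, with LCN2 libraries left of GFP libraries; gonadal values are log2 of the normalized count plus 1 and subcutaneous values are rlog. In gonadal fat GFP replicate 2 was lowest for 26 of 28 blood vessel genes and all 4 lymphatic genes, and in subcutaneous fat GFP replicate 2 was lowest for 21 of 28.

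Markers of other cell types also varied between these libraries, not all in the same direction. Markers of mural cells, the pericytes and smooth muscle around vessels, had a median deviation of -0.89 in GFP replicate 2 and -0.27 in GFP replicate 3. Over the groups, 7 of 10 mural markers were higher with LCN2. At an unadjusted p under 0.05 by limma 2 were higher, against 7.44% of all genes. Summed mural reads were between 37696 and 59294 with LCN2 and between 18802 and 92609 with GFP. Fat cell markers had their highest median deviations in GFP replicates 3 and 2 (0.32 and 0.29), with summed reads of 624470 to 928977 with LCN2 and 702029 to 961139 with GFP, and 2 of 8 were higher. Skeletal muscle markers were highest in LCN2 replicate 4 and GFP replicate 2, at 5.88 and 1.31. No mural or fat cell marker was at 0 in any library, while the muscle genes Ckm and Tnnc2 were at 0 in GFP replicate 1. Summed muscle reads were between 1909 and 56368 with LCN2 and between 1119 and 3285 with GFP, and 8 of 8 tested muscle markers were higher. Hepatocyte markers had median deviations of 1.91, 3.05, -0.28 and -1.94 in the LCN2 libraries and 1.48, -2.14, -1.03 and -1.14 in the GFP libraries, so that they too were lowest in GFP replicate 2. All 6 were higher with LCN2 (median 1.44), 0 of them at an unadjusted p under 0.05 by limma, with summed reads of 1960 to 41837 with LCN2 and 1866 to 14128 with GFP, and none was at 0 in any library. Markers of fibroblasts, macrophages, red cells, platelets and mammary epithelium stood at 0.23, -0.08, -0.62, -0.15 and -0.19 in GFP replicate 2. The part of these cells in the endothelial result was not tested. Without both muscle-rich libraries the blood vessel median was 0.16.

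Junction and adhesion genes had a median difference of 0.51 in gonadal fat. Cdh5, which encodes VE-cadherin and lies on chromosome 8 (104101625 to 104144511, GRCm38), had normalized counts of 11487, 13455, 12542 and 11625.5 in LCN2 samples, against 10237, 5101, 7819.5 and 10930.1 in GFP samples. Every LCN2 sample was above every GFP sample, narrowly so for GFP replicate 4. The difference was 0.58 ± 0.22 (adjusted p = 0.269 by limma), and 0.36 without GFP replicate 2. Cldn5, the tight junction protein claudin-5, had 4109, 3840.4, 3165.6 and 2771 normalized counts with LCN2 and 3562, 1092, 1934 and 2849 with GFP. Its groups overlapped, with GFP replicates 2 and 3 at the low end (0.67 ± 0.33, adjusted p = 0.386). Icam2, an adhesion molecule for leukocytes, differed by 0.51, Pecam1, the platelet endothelial adhesion molecule, by 0.45, and Esam, another adhesion molecule of the junction, by 0.33.

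Among the 9 receptors the apelin receptor stood apart. Aplnr (ENSMUSG00000044338, chromosome 2, 85136225 to 85139923, GRCm38) had normalized counts of 1439.9, 2604, 2295 and 2552 in LCN2 samples, against 1150.01, 460, 956 and 1196 in GFP samples. All 4 LCN2 samples were above all 4 GFP samples, and LCN2 replicates 2, 3 and 4 were at about the same level. Aplnr was 2.45-fold as high with LCN2 (95% confidence interval 1.49 to 4.03), a log2 difference of 1.29 ± 0.32 with an adjusted p of 0.158 by limma. On the reads recovered from the table, DESeq2 gave 1.24 with an adjusted p of 0.00464, among 818 genes called (4.29% of 19067), and edgeR gave 1.23 with an adjusted p of 0.193, among 7 genes called (0.0358% of 19536). Without GFP replicate 2 the difference was 0.98 (adjusted p = 0.232 by limma).

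The other receptors differed less. Tie1, an orphan receptor that works with the angiopoietin receptor, had normalized counts of 2993, 3879.7, 3496 and 3828 in LCN2 samples, against 2795, 1640.01, 2409 and 3289 in GFP samples. GFP replicate 4 lay inside the LCN2 range, and the difference was 0.52 ± 0.20 (adjusted p = 0.270 by limma). Ptprb, the phosphatase that restrains the angiopoietin receptor, differed by 0.35, Robo4, a guidance receptor that stabilizes vessels, by 0.34, and Eng, a co-receptor for bone morphogenetic proteins, by 0.30. Tek, the angiopoietin receptor, differed by 0.30, Kdr, the main signalling receptor for VEGF, by 0.24, and Flt1, a VEGF receptor that acts largely as a decoy, by 0.23. Ednrb, the endothelin receptor B, had a difference of 0.03 ± 0.21, with 2358, 2142, 2024 and 1242 normalized counts with LCN2 and 2139, 1711, 1486 and 2141 with GFP. The 95% interval of that difference runs from -0.44 to 0.50, and its sign turned when single libraries were left out.

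Of the transcription factors, Sox7 had 714, 867, 854 and 923 normalized counts with LCN2 and 784, 377, 546 and 679 with GFP. Only GFP replicate 1 lay inside the LCN2 range (0.54 ± 0.21, adjusted p = 0.277 by limma). Erg, an ETS factor that maintains endothelial identity, differed by 0.49 ± 0.21 (adjusted p = 0.318 by limma), and Sox18 and Sox17, which act with Sox7 in vessel formation, by 0.29 and 0.24. Exons of Sox17 overlap those of Gm37587 on the opposite strand over 16.8% of their bases, and whether the counting used the strand is not given in the sources used here.

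Surface and matrix genes had a median difference of 0.41. Vwf, the clotting factor von Willebrand factor stored in endothelial granules, had 5182, 6028, 4643 and 5714 normalized counts with LCN2 and 5242, 2449, 4116 and 5127 with GFP. GFP replicates 1 and 4 were within the LCN2 range and GFP replicates 2 and 3 below it (0.40 ± 0.23, adjusted p = 0.460 by limma). Egfl7, a secreted vessel matrix protein, differed by 0.48, Ecscr, a surface protein of endothelial cells, by 0.43, Mmrn2, a matrix ligand of Clec14a, by 0.42, and Clec14a by 0.28. Emcn, a sialomucin of capillaries and veins, differed by 0.05 ± 0.15, with a 95% interval of -0.30 to 0.40.

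Nos3, the endothelial nitric oxide synthase, had the second smallest p of the members in gonadal fat. It had 1634, 1818, 2728 and 1746 normalized counts in LCN2 samples, against 1152, 1078, 1666 and 909 in GFP samples. GFP replicate 3 lay just above LCN2 replicate 1, and all other GFP samples were below every LCN2 sample. The difference was 0.73 ± 0.21 (adjusted p = 0.191 by limma), and 0.69 without GFP replicate 2. DESeq2 on recovered reads gave 0.72 with an adjusted p of 0.0458. Nos3 did not follow most blood vessel genes across GFP libraries, since it was lowest in GFP replicate 4. Ednrb was the other exception, lowest of the GFP libraries in GFP replicate 3 and of all libraries in LCN2 replicate 4. Exons of Nos3 overlap those of Gm15587 on the opposite strand over 25.2% of their bases. The venular chemokine receptor Ackr1 differed by 0.43, but 25.7% of its exonic bases are shared with Cadm3 on the same strand, so its reads are uncertain. Plvap, which forms the diaphragms of fenestrae and caveolae, differed by 0.19, and Gpihbp1, which carries lipoprotein lipase to the capillary lumen, by 0.17 ± 0.13.

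**Figure D2:**
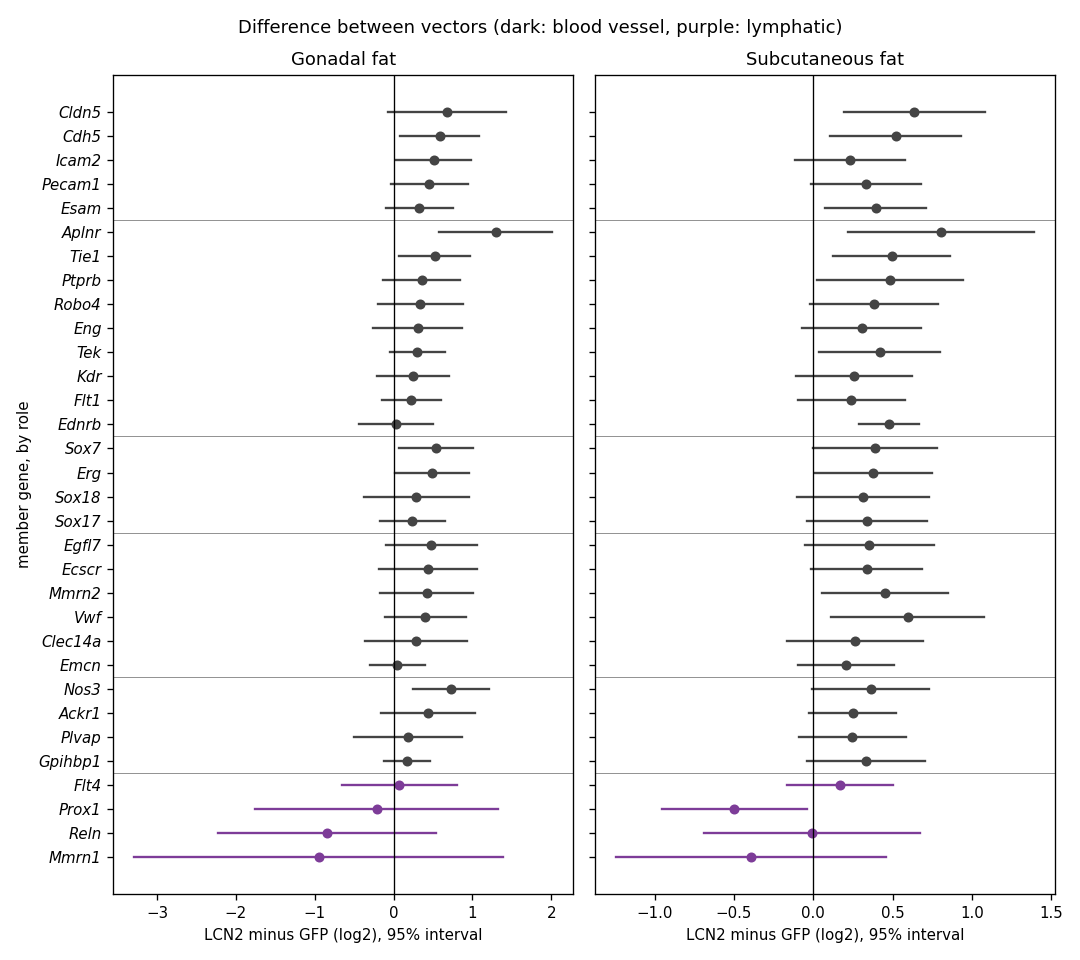
Difference between LCN2 and GFP samples (log2, horizontal axis) with its 95% confidence interval from limma for each of the 32 genes, by role, in gonadal and subcutaneous fat; the scales of the panels differ. All 28 blood vessel genes (dark) lie right of 0 in both depots, and in gonadal fat the lymphatic genes (purple) Mmrn1, Prox1 and Reln have the widest intervals.

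Lymphatic genes in gonadal fat lay the other way in most samples. The median difference of the 4 was -0.53, with 1 higher and 3 lower, and none had an unadjusted p under 0.05. Mmrn1 (multimerin-1, a matrix protein of lymphatic endothelium, chromosome 6, 60924976 to 60989378) had normalized counts of 151, 118, 77.1 and 156 in LCN2 samples, against 539, 17.3, 522 and 602 in GFP samples. The 4 LCN2 values lay together, 3 GFP values were between 522 and 602, and GFP replicate 2 was below all others. The difference was -0.95 ± 1.03 (adjusted p = 0.732 by limma), and -2.18 without GFP replicate 2 (adjusted p = 0.118 by limma).

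Reln, the secreted glycoprotein reelin, which lymphatic endothelium makes, showed the same order. It had 162, 121, 97.5 and 197 normalized counts with LCN2 and 425, 58.0, 351 and 451 with GFP. Its difference was -0.84 ± 0.61 (adjusted p = 0.574 by limma), and -1.54 without GFP replicate 2 (adjusted p = 0.141 by limma). Prox1, the factor that sets lymphatic identity, had 87.1, 123, 29.5 and 54.2 normalized counts with LCN2 and 108, 17.3, 121 and 136 with GFP. The groups overlapped, since LCN2 replicate 2 stood among the 3 high GFP samples (-0.21 ± 0.68, adjusted p = 0.927 by limma). Flt4, the receptor of the lymphatic growth factor VEGF-C, had 613, 683, 616 and 752 normalized counts with LCN2 and 864, 299, 646 and 956 with GFP. Its mean was lower with LCN2 (666 ± 65.9 against 691 ± 292, SD), while its mean log2 difference was 0.07 ± 0.32. It was -0.29 without GFP replicate 2.

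GFP replicate 2 was thus the lowest library for all 4 lymphatic genes as well, at a median deviation of -1.81, while GFP replicates 1, 3 and 4 stood at 0.90, 0.85 and 1.11. The LCN2 libraries stood at -0.12, -0.22, -1.03 and -0.02. Without GFP replicate 2, the median difference of the 4 was -1.22 and all 4 were lower with LCN2. No member passed the adjusted threshold in that fit, in which limma called 1 gene of all.

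**Figure D3:**
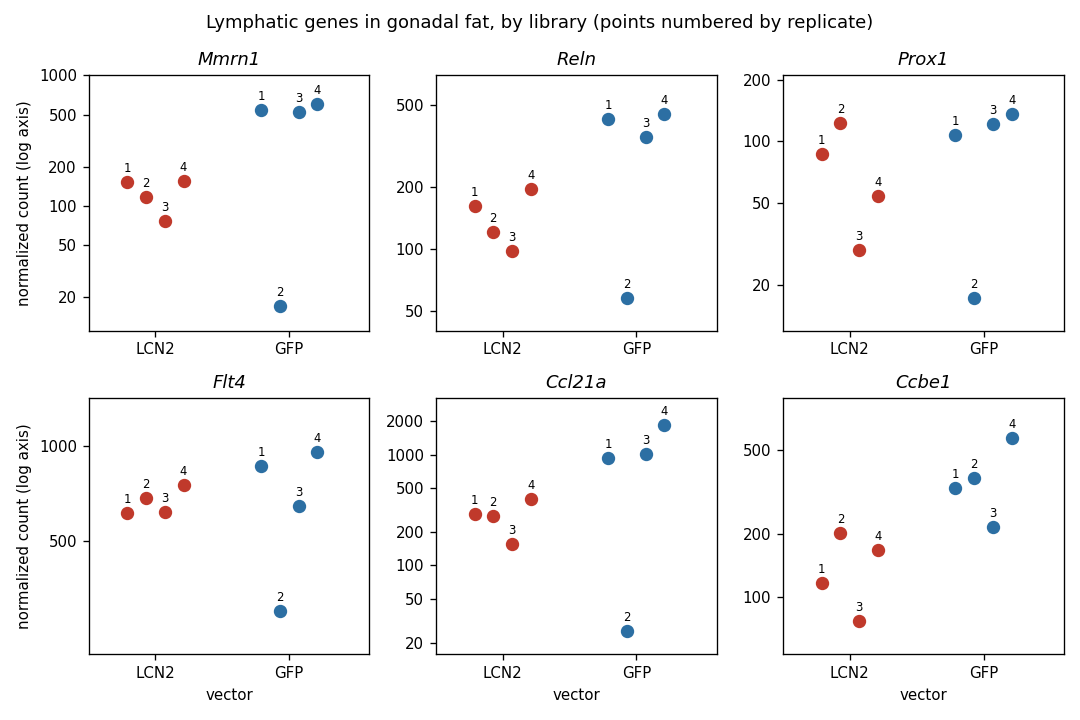
Normalized counts (log axis) of 4 lymphatic members, the lymphatic chemokine Ccl21a and Ccbe1 in the 8 gonadal libraries, LCN2 left and GFP right, with each point numbered by replicate. For Mmrn1, Reln and Ccl21a, GFP replicates 1, 3 and 4 lie above all LCN2 points and GFP replicate 2 below them; for Ccbe1 all GFP points lie above all LCN2 points.

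Other lymphatic genes gave a mixed picture in gonadal fat. Of 8 listed, 7 were tested, with 3 higher, 4 lower and a median difference of -0.21. Ccbe1, a secreted protein needed to process VEGF-C, had 117, 202, 77.1 and 168 normalized counts with LCN2 and 331, 369, 216 and 566 with GFP. The groups did not overlap, and GFP replicate 2 was among the high samples (-1.40 ± 0.35, adjusted p = 0.166 by limma). Ccbe1 was the only 1 of the 7 without overlap, and 4.71% of all genes were likewise lower without overlap. Ccl21a, the chemokine by which lymphatic vessels and lymph node stroma guide dendritic cells, had 294, 282, 155 and 395 normalized counts with LCN2 and 943, 25.4, 1006 and 1859 with GFP. As for Mmrn1, GFP replicate 2 was lowest and the other GFP samples were highest (-0.79 ± 1.17, adjusted p = 0.813 by limma). Near-identical copies of Ccl21a exist in the mouse, so how its reads were assigned is uncertain. Lyve1, a hyaluronan receptor shared with macrophages, differed by -0.66 ± 0.33.

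Lymph node markers were low in all gonadal libraries. Their summed reads were between 656 and 1162 with LCN2 and between 614 and 1779 with GFP, and of 20 tested 9 were higher and 11 lower. Their median deviation was lowest in GFP replicate 2 (-0.78) and highest in GFP replicate 4 (0.65). Among them Chst4, a sulfotransferase of high endothelial venules, had 25.8, 58.5, 19.3 and 48.1 normalized counts with LCN2 and 116, 48.8, 85.9 and 106 with GFP (-1.27 ± 0.40). Mesothelial markers, from the covering of gonadal fat, were lower with LCN2 in 8 of 8, with a median difference of -1.32. At an unadjusted p under 0.05 by limma 7 of them were lower, against 7.38% of all genes. The groups did not overlap for 5, against 4.71% of all genes lower without overlap. Their smallest adjusted p was 0.066 by limma. The part of these cells in the lymphatic values was not tested.

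In subcutaneous fat the same 28 blood vessel genes were also all higher on average with LCN2, by a median of 0.36 on the rlog scale, against -0.00078 over all 20302 genes. Of all genes, 49.8% had a difference above 0. Limma called 0 genes at an adjusted p under 0.05, and 2851 had an unadjusted p under 0.05. At that unadjusted level 11 of the 28 were higher and none lower, against 7.81% of all genes higher. Ednrb and Cldn5 did not overlap between the groups, and 3.81% of all genes were higher without overlap. The adjusted p of the 32 members lay between 0.308 and 0.991.

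Lymph node content differed between the subcutaneous libraries. GFP replicates 1 and 2 held lymph node transcripts, with median deviations of the 23 markers at 2.77 and 2.14, against -1.03 and -1.08 in GFP replicates 3 and 4. LCN2 libraries stood at -1.06, -1.39, -0.95 and 0.58, and LCN2 replicate 4 was high in B cell markers (1.67) but not in T cell markers (-0.60). All 23 markers were lower on average with LCN2. Their summed linear values were between 1128 and 6053 with LCN2 and between 1299 and 29677 with GFP. Glycam1, a mucin of high endothelial venules in lymph nodes, had rlog values of 5.29, 5.37, 5.38 and 7.96 with LCN2 and 13.05, 11.47, 5.23 and 5.27 with GFP.

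The blood vessel genes were not high in the libraries with lymph node transcripts. Their median deviations were 0.10, 0.28, 0.11 and 0.20 in the LCN2 libraries and -0.24, -0.46, -0.25 and 0.26 in the GFP libraries. GFP replicate 2 was lowest for 21 of 28, against 12.9% of all genes, and GFP replicate 4 lay at the level of the LCN2 samples. Without the lymph node libraries, which leaves GFP replicates 3 and 4, all 28 were still higher, with a median of 0.20. Without all 3 libraries with B cell transcripts, a choice made after seeing the data, 27 of 28 were higher with a median of 0.19. The same 2 GFP libraries remain in that fit. With the summed lymph node markers as a covariate the median was 0.28 with 28 of 28 higher.

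**Figure D4:**
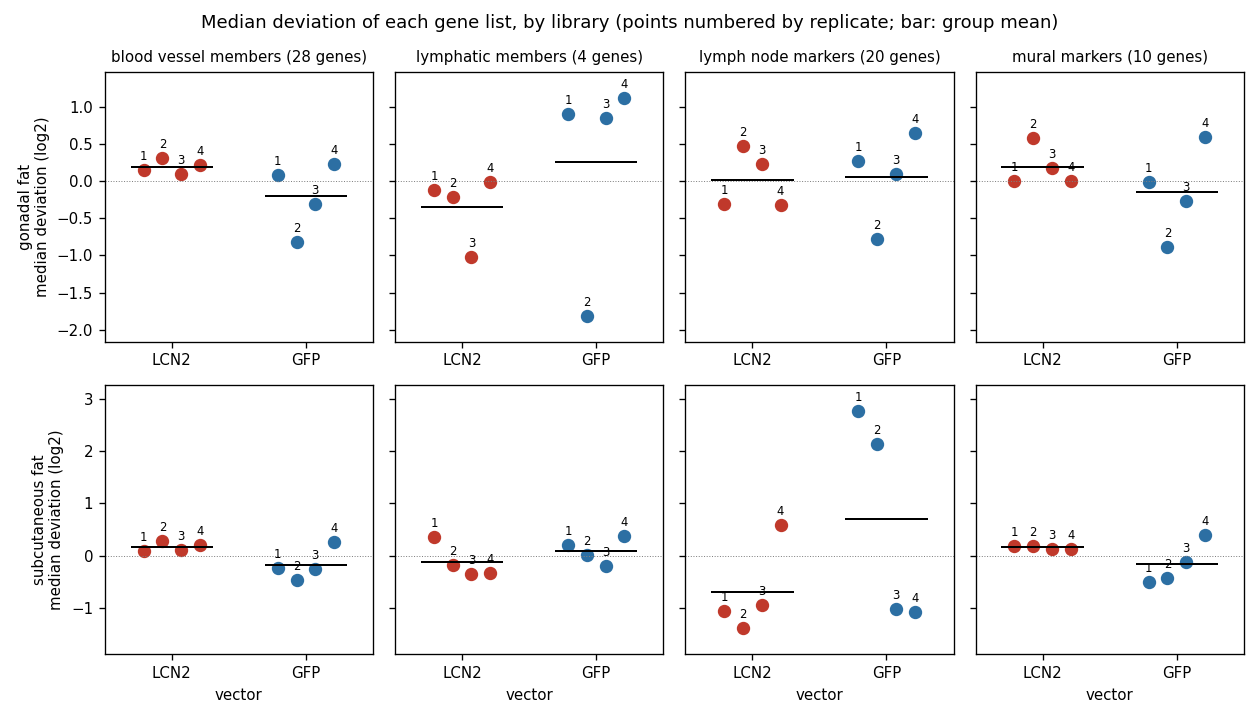
Median deviation (log2) of the blood vessel members, the lymphatic members, lymph node markers and mural markers in each library, LCN2 left and GFP right, numbered by replicate with the group mean as a bar. In subcutaneous fat GFP replicates 1 and 2 stand high in lymph node markers, while GFP replicates 1, 2 and 3 stand low in blood vessel genes. In gonadal fat GFP replicate 2 is lowest in all 4 lists.

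Ednrb had the smallest p of the 32 in subcutaneous fat, unlike in gonadal fat. Its rlog values were 10.38, 10.22, 10.31 and 10.19 in LCN2 samples, against 9.58, 9.84, 9.84 and 9.93 in GFP samples. All LCN2 samples were above all GFP samples and both groups were narrow. The difference was 0.48 ± 0.08, 1.39-fold (95% confidence interval 1.22 to 1.59), with an unadjusted p of 0.000376 and an adjusted p of 0.308 by limma. It was 0.39 without the lymph node libraries. The 2 depots' tables had been normalized apart, and the difference between depots was not tested.

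Cldn5 had rlog values of 11.01, 11.40, 11.11 and 10.92 in LCN2 samples, against 10.75, 9.94, 10.41 and 10.80 in GFP samples. The groups did not overlap, with a gap between LCN2 replicate 4 and GFP replicate 4 that was small beside the spread (0.64 ± 0.19, adjusted p = 0.308 by limma). It was 0.51 without the lymph node libraries. Cdh5 had 12.79, 13.14, 13.03 and 12.96 with LCN2 and 12.38, 12.08, 12.39 and 13.00 with GFP, so that GFP replicate 4 alone reached the LCN2 samples (0.52 ± 0.18, adjusted p = 0.313 by limma). Without the lymph node libraries Cdh5 differed by 0.29. Esam differed by 0.39, Pecam1 by 0.33 and Icam2 by 0.23 with all samples.

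The apelin receptor was again the receptor with the largest difference. Aplnr had rlog values of 10.41, 10.83, 10.66 and 10.82 in LCN2 samples, against 9.49, 9.37, 10.05 and 10.60 in GFP samples. GFP replicates 1 and 2 were lowest, and GFP replicate 4 lay within the LCN2 range. The difference was 0.80 ± 0.26 (adjusted p = 0.308 by limma), and 0.36 without the lymph node libraries. Tie1 had 10.99, 11.33, 11.15 and 11.31 with LCN2 and 10.62, 10.39, 10.63 and 11.17 with GFP (0.50 ± 0.16, adjusted p = 0.308 by limma). Ptprb differed by 0.48, Tek by 0.42, Robo4 by 0.38, Eng by 0.31, Kdr by 0.26 and Flt1 by 0.24. Without the lymph node libraries Flt1 differed by 0.03 and Kdr by 0.11.

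Among the remaining groups, Vwf had rlog values of 12.36, 12.28, 11.95 and 11.95 with LCN2 and 11.26, 11.14, 11.68 and 12.10 with GFP. GFP replicates 1 and 2 were the lowest, and GFP replicate 4 was within the LCN2 range (0.60 ± 0.21, adjusted p = 0.314 by limma). Mmrn2 differed by 0.45, Egfl7 by 0.35, Ecscr by 0.34, Clec14a by 0.26 and Emcn by 0.21. The transcription factors lay close together, with Sox7 at 0.39, Erg at 0.38, Sox17 at 0.34 and Sox18 at 0.31. Nos3 had 9.97, 10.27, 10.73 and 10.07 with LCN2 and 9.74, 9.80, 10.04 and 10.03 with GFP, and LCN2 replicate 3 was the highest library, as LCN2 replicate 3 was in gonadal fat (0.36 ± 0.16, adjusted p = 0.362 by limma). Gpihbp1 differed by 0.33, Ackr1 by 0.25 and Plvap by 0.25.

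Mural markers were higher with LCN2 in 9 of 10 in subcutaneous fat, with 4 higher at an unadjusted p under 0.05 by limma, against 7.81% of all genes. Their summed linear values were between 32180.2 and 39611 with LCN2 and between 21171 and 36369.7 with GFP. GFP replicates 1 and 2 had the lowest median deviations, at -0.51 and -0.44. Rgs5, a pericyte gene, was the only mural marker whose groups did not overlap, in both depots. Of all genes, 4.40% in gonadal and 3.81% in subcutaneous fat were higher without overlap. Rgs5 differed by 0.87 ± 0.23 in gonadal fat (adjusted p = 0.181 by limma) and 0.62 ± 0.14 in subcutaneous fat (adjusted p = 0.308 by limma). Mural markers lower with LCN2 were Myh11, Tagln and Cnn1 in gonadal fat (0.75-, 0.64- and 0.54-fold) and Cspg4 in subcutaneous fat (0.93-fold). All 6 hepatocyte markers were lower with LCN2 (median -0.69), with summed linear values of 2141 to 3033 with LCN2 and 2121 to 10382.5 with GFP, and their highest median deviation, 1.96, was in GFP replicate 2. Fibroblast markers had their lowest, -0.95, in GFP replicate 1. The part of these cells in the endothelial values was not tested.

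The lymphatic genes of subcutaneous fat were spread within both groups. Their median difference was -0.20, with 1 higher and 3 lower. Prox1 had rlog values of 6.34, 5.86, 5.80 and 6.06 in LCN2 samples, against 6.97, 6.68, 6.11 and 6.28 in GFP samples. The 2 highest samples were the GFP replicates with lymph node transcripts, and the other GFP samples lay within the LCN2 range. The difference was -0.50 ± 0.20, with an unadjusted p of 0.0368, a level at which 6.24% of all genes were lower, and an adjusted p of 0.336 by limma. It was -0.18 without the lymph node libraries.

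Mmrn1 had 7.84, 6.04, 6.40 and 6.31 with LCN2 and 7.23, 7.07, 6.60 and 7.28 with GFP. LCN2 replicate 1 was the highest library and the other LCN2 samples the lowest (-0.39 ± 0.37, adjusted p = 0.625 by limma). Reln had 8.42, 7.84, 7.53 and 7.33 with LCN2 and 7.19, 7.59, 8.04 and 8.33 with GFP, a difference of -0.01 ± 0.30 with a 95% interval of -0.69 to 0.67. Flt4 had 8.72, 8.88, 8.69 and 8.92 with LCN2 and 8.73, 8.39, 8.39 and 9.03 with GFP (0.17 ± 0.15, adjusted p = 0.598 by limma). Of the other lymphatic genes, Ccl21a had 9.07, 7.18, 7.50 and 7.15 with LCN2 and 11.55, 10.72, 7.86 and 8.77 with GFP. Its 2 highest values were in the GFP libraries with lymph node transcripts (-1.997 ± 0.82, adjusted p = 0.339 by limma). Ccbe1 differed by -0.58 ± 0.27, with overlapping groups.

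Aplnr was followed further because it differed most among the receptors in both depots. Relative to the median deviation of the 28 blood vessel genes in the same gonadal library, Aplnr stood at -0.09, 0.60, 0.64 and 0.67 in LCN2 samples, against -0.35, -0.77, -0.22 and -0.44 in GFP samples. On this scale the gonadal groups did not overlap for Aplnr and Cdh5 and overlapped for the other blood vessel members. The same 2 genes did not overlap on the normalized counts, where 4.40% of all genes were higher without overlap. No share over all genes was computed on the relative scale, so the count of 2 is no result by itself. In subcutaneous fat Aplnr stood at 0.04, 0.27, 0.27 and 0.34 in LCN2 samples, against -0.55, -0.45, 0.03 and 0.06 in GFP samples. There the groups overlapped for all 28, Aplnr and Cdh5 included, since GFP replicate 4 was above LCN2 replicate 1 for both. Apln, the gene of its ligand apelin, had normalized counts of 270.2, 517, 461 and 345 with LCN2 and 238, 91.6, 151 and 397 with GFP in gonadal fat. The groups overlapped, with GFP replicate 4 inside the LCN2 range (1.02 ± 0.42, adjusted p = 0.301 by limma). In subcutaneous fat Apln had rlog values of 7.23, 8.34, 7.97 and 7.66 with LCN2 and 6.97, 6.63, 6.97 and 7.38 with GFP (0.81 ± 0.24, adjusted p = 0.308 by limma). The other apelin receptor ligand, Apela, was at or near 0 reads in gonadal fat, with at most 4.07 normalized counts in any library.

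**Figure D5:**
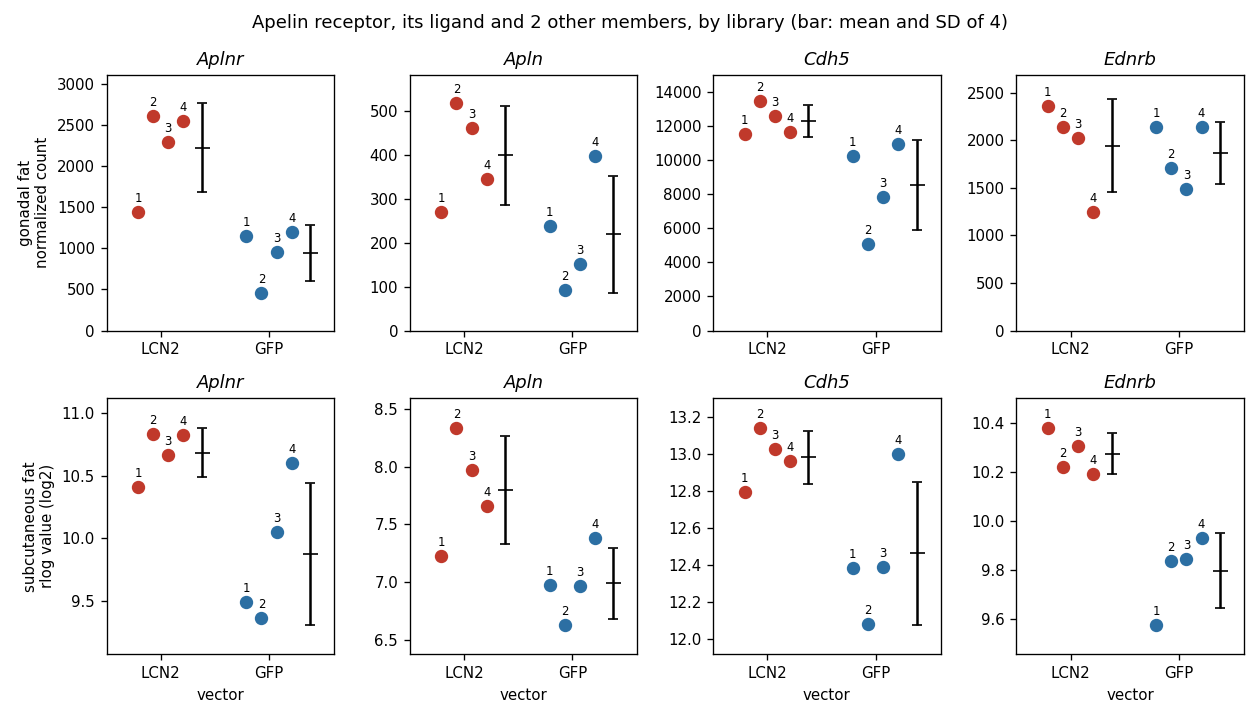
Aplnr, its ligand gene Apln, Cdh5 and Ednrb in each library of gonadal fat (normalized count) and subcutaneous fat (rlog), LCN2 left and GFP right, points numbered by replicate, with the mean and SD of 4 samples as a bar. In gonadal fat the Aplnr points of the vectors do not overlap, and Ednrb is separated in subcutaneous fat only.

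Growth factors that act on these receptors were divided in gonadal fat. Of 8 VEGF and angiopoietin ligands there, 4 were higher and 4 lower, with a median of 0.11. Vegfa, the main ligand of Kdr, had 8718, 9893, 9356 and 9989.6 normalized counts with LCN2 and 8992, 9922, 9411 and 14203 with GFP, and only GFP replicate 4 stood out. Vegfd, a lymphatic growth factor, differed by -0.32 ± 0.13 (adjusted p = 0.302 by limma), Pgf by 0.59 ± 0.35 and Angpt2, the context-dependent angiopoietin made by endothelium, by 0.65 ± 0.40. In subcutaneous fat 7 of the 8 were higher with a median of 0.08, led by Vegfc at 0.32 ± 0.12 and Angpt2 at 0.35 ± 0.14. The VEGF co-receptors Nrp2 and Nrp1 differed by 0.50 ± 0.19 and 0.31 ± 0.14 in gonadal fat.

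Genes of arteries and of Notch signalling lay with the blood vessel members. In gonadal fat 9 of 11 were higher (median 0.36), with Efnb2 at 0.60 ± 0.27, the Notch ligand Dll4 at 0.61 ± 0.30 and the gap junction gene Gja5 at 0.35 ± 0.18. In subcutaneous fat 11 of 11 were higher (median 0.36), with Gja5 at 0.48 ± 0.15 and Sema3g at 0.50 ± 0.18. Genes of veins and of activated endothelium were divided, at 3 higher and 2 lower in gonadal fat and 4 higher and 2 lower in subcutaneous fat. The venous factor Nr2f2 differed by -0.31 ± 0.14 in gonadal fat, and in subcutaneous fat P-selectin (Selp) differed by 0.51 ± 0.14 and Vcam1 by -0.47 ± 0.19. No gene of these lists passed the adjusted threshold.

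Basement membrane genes linked to sprouting tip cells were higher in most samples. In gonadal fat 7 of 8 tip cell genes were higher (median 0.43). Col4a2 had 49025, 71621, 65173 and 58614 normalized counts with LCN2 and 38449, 20451, 33269.8 and 42816 with GFP, with no overlap (0.90 ± 0.24, adjusted p = 0.181 by limma). Its partner chain Col4a1 did not overlap either (0.74 ± 0.22, adjusted p = 0.199 by limma). Fat cells and fibroblasts also make both chains. Rgcc was lower with no overlap, by a small margin (-0.18 ± 0.08). Of all genes in gonadal fat, 4.40% were higher and 4.71% lower without overlap. In subcutaneous fat 7 of 8 were higher (median 0.33), with Col4a2 at 0.73 ± 0.24. There 6 were higher at an unadjusted p under 0.05 by limma, against 7.81% of all genes. Esm1, a tip cell proteoglycan, did not overlap there, at 5.38, 5.46, 5.24 and 5.10 with LCN2 and 5.04, 4.96, 4.90 and 5.05 with GFP (0.31 ± 0.09). In that depot 3.81% of all genes were higher without overlap. Of 11 other transcription factors of endothelium, 9 were higher in gonadal fat and 5 in subcutaneous fat. Ets2 did not overlap in gonadal fat (0.65 ± 0.20, adjusted p = 0.205 by limma), and the flow-responsive factors Klf2 and Klf4 differed by 0.01 each there.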

How the data were processed

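Gene expression was measured by RNA sequencing in 16 fat samples, with groups and replicate numbers taken from the labels. Frozen tissue gave RNA of integrity above 8.2, sequenced from stranded mRNA libraries, per the labels' protocols. The submitters' processing notes name HISAT2 and DESeq2 and the builds GRCm38 and mm10, without versions, and neither a counting tool nor a strand setting is known here. The authors' gonadal table held a deposited signal per gene, that is counts divided by 1 size factor per sample (called normalized counts in the text), although the table is named as counts. Dividing by the value of 1 read gave whole numbers for 100% of values within a tolerance of 1e-06, and these are the recovered reads. In these libraries 3 reads equal 0.0699 to 0.0853 CPM, which covers counting error only. The subcutaneous table was deposited as rlog values, a regularized log2 scale per the table's name. It pulls low genes towards their mean, which understates their differences, and it holds no depth.

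Symbols, coordinates and exon lengths came from GENCODE vM21 on GRCm38. Tests were run within each table with limma 3.58.1 (R 4.3.3, intensity trend). Gonadal values entered as log2(normalized count + 1), for 19536 genes with a mean of at least 10, and subcutaneous rlog values as they are, for 20302 genes with a mean of at least 3. Benjamini-Hochberg adjustment ran over all genes tested, with a threshold of 0.05. As alternatives, the recovered reads were tested with edgeR 4.0.16 and with DESeq2 1.42.0. The fits were tested on simulated data. A list was described by its counts and median beside all genes. The members and the 26 lists were chosen with earlier results of these data known, so their directions are no independent support. Values in every sample are given for the members with the 5 smallest p in each depot, the 4 lymphatic members and 1 or 2 members of each role. Of the other lists, up to 3 genes with the smallest p per depot are named. Ccl21a, Vegfa, Apela, Klf2, Klf4, Chst4, Col4a1, Rgs5, Myh11, Tagln, Cnn1, Cspg4 and Glycam1 were in part chosen after their values were seen. Apart from the group size, no label says that each sample is from its own mouse, and p-values cover the spread of these samples, which may be technical. No 2 gonadal libraries were alike within sampling noise, with a chi-square per gene of at least 45.8, and the SD of the rlog difference between subcutaneous libraries was at least 0.198.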

Additional observations from a re-analysis of the deposited data

Results flagged for a closer look

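Single samples stood far from the other 3 of their group in 7 gonadal results, by a test that chance meets in about 1 in 20 groups. Over as many genes as the 32 members, some such samples are met by chance, so the count is no result by itself. GFP replicate 2 was low for Mmrn1 (17.3 normalized counts), Prox1 (17.3) and Reln (58.0), and for the median deviation of the 4 lymphatic members (-1.81). These are not separate signs, since the 4 genes were measured in 1 library. LCN2 replicate 4 was high for Flt1 (5545), and LCN2 replicate 3 was low for Mmrn2 (2937) and for Ackr1 (151), where the other 3 samples lay close together.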

How the results depend on the processing

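No member passed the adjusted threshold in either depot under any alternative except DESeq2 on recovered gonadal reads, which called 2, Aplnr (1.24) and Nos3 (0.72). The gonadal count of called genes was 20 with all samples, 11 with a mean of at least 50, 13 with TMM scaling, 6 with scaling by library totals, 7 with edgeR, 818 with DESeq2 and 0 without the muscle libraries. It was between 1 and 66 when single replicates were left out. LCN2 and GFP samples of equal replicate number were not clearly paired. Their deviations correlated at 0.25, -0.36, 0.42 and 0.02 in gonadal fat and -0.11, -0.33, 0.34 and -0.36 in subcutaneous fat. Replicates 1 and 3 in gonadal fat and replicate 3 in subcutaneous fat correlated best with their own number, the others did not. With the replicate block 0 genes and 0 members were called. Between the depots, same-numbered samples correlated at 0.45, 0.151, 0.446 and 0.0907 for LCN2, each best with its own number, and at 0.103, -0.0754, 0.184 and 0.275 for GFP, with 2 of 4 best. The depots may therefore share mice and are not taken as independent of each other. The blood vessel median stayed above 0, between 0.15 and 0.53 in gonadal fat and between 0.25 and 0.51 in subcutaneous fat, without single replicates, and the lymphatic median stayed below 0, between -1.22 and -0.22 and between -0.41 and -0.07. Signs turned for 6 genes in gonadal fat when single replicates were left out, over ranges of -0.076 to 0.23 for Ednrb, -0.0050 to 0.48 for Sox18, -0.035 to 0.19 for Emcn, -0.028 to 0.50047 for Plvap, -0.90 to 0.15 for Prox1 and -0.29 to 0.27 for Flt4. Without the muscle libraries Emcn was at -0.049, Plvap at -0.076 and Flt4 at -0.35, and Flt4 was at -0.067 with edgeR and -0.057 with DESeq2. In subcutaneous fat Flt1 was at -0.016 without all 3 libraries with B cell transcripts. Reln there was at 0.015 when centred on the median of all genes and 0.029 with sample quality weights, and between -0.22 and 0.17 without single replicates. The cause was not tested. Depth limits Prox1 most, the member with the fewest reads.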
